A study of Arabidopsis thaliana with 12 samples.

Results

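Histone genes were taken from the tables of an Arabidopsis thaliana seedling data set by a fixed list of 43 gene identifiers, out of 27655 genes listed. The list holds 8 genes of histone H4, 5 of H3.1, 3 of H3.3, 13 of H2A and its variants, 11 of H2B and 3 of the linker histone H1. The rule used gene identifiers and no measured value. Plants were Col-0 seedlings, the common laboratory accession, 7 days old, grown in liquid medium under long days and given only the solvent DMSO as a mock treatment before harvest. Whole-seedling RNA depleted of ribosomal RNA was sequenced in 6 libraries (RNA-seq), and the short fragments that ribosomes shield from RNase I were sequenced in another 6 (Ribo-seq), from lysates with cycloheximide and chloramphenicol. Harvests differed in time after that treatment, and the labels do not assign a time to each library. No group differed in genotype or agent, so the contrast is that between the assays.

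Nucleosomes wrap DNA around a core of H2A, H2B, H3 and H4, and H1 binds the DNA between cores. Replicative histones (H4, H3.1 and canonical H2A here) are made mainly while DNA is copied, whereas replacement histones (H3.3 and H2A.Z here) are laid down outside replication as well. Unlike animal replicative histone mRNAs, those of plants carry poly(A) tails, and each histone is encoded by several genes spread over the genome.

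Each table pools its 6 libraries into 1 value per gene, so no spread between replicates exists, no test was made and every interval covers counting error alone (95%, exact). Levels are in TPM, the share of a library corrected for the effective length of each coding sequence, and are given as TPM of RNA (RNA-seq) and TPM of footprints (Ribo-seq), in that order where a pair of values stands without a name. To form the ratio, 0.1 was added to either TPM, the Ribo-seq value was divided by the RNA-seq value and the log2 was taken. It was formed for genes over 0.1 TPM in RNA-seq, and 0 means an equal share of both assays. Totals were 51390094 RNA-seq counts and 299584069 footprints. The Ribo-seq descriptions name root while titles and source name seedlings. Both kinds of tissue were present in both assays, since the 4 shoot markers (LHCB1.1, RBCS1A, RCA and GUN4) summed to 11546 TPM of RNA and 15810 TPM of footprints, and the 5 root markers (PYK10, NRT2.1, CASP1, COBL9 and EXPA7) to 3188 and 4736 TPM. PYK10 made up 97.9% of the root sum in each assay, and the other 4 ran from 1.90 TPM of RNA in NRT2.1 to 44.80 TPM in CASP1. In whole seedlings a lower level may mean fewer dividing cells or less RNA in each, which cannot be told apart.

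Histone mRNAs took a larger part of footprints than of RNA. The 43 genes summed to 5021.5 TPM of RNA (0.502% of all) and 8415.6 TPM of footprints (0.842%). Since plastid and mitochondrial genes weigh differently in the assays, the shares among nuclear genes were also taken, and they were 0.720% and 0.884%. A ratio could be given for 41 members, with a median of 0.64 and a range from -0.19 to 1.95. Of these 41, 14 had a ratio over 1 (34.1%), against 8.44% of the 21422 nuclear genes with a ratio, and 13 of the 14 intervals lay wholly over 1. None of the 41 lay under -1, against 10.1% of nuclear genes. The nuclear median was 0.12 with quartiles of -0.42 and 0.57, and 36 members lay above that median.

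Histone coding sequences are short, and the effective length of a short coding sequence differs between the assays (fragments of 187 bases in RNA-seq and 28 bases in Ribo-seq, from the length terms of the tables). Each member was therefore set beside all nuclear genes with a coding length within 10% of its own. Between 10.5% and 18.2% of such genes had a ratio over 1, so the share to read the 34.1% against is larger than 8.44%. Above the median of like-length genes lay 27 of the 41 members, which came from H4 (8 of 8), H3.1 (4 of 5), H3.3 (3 of 3), H2B (7 of 10) and H1 (2 of 3), and from all H2A types in 3 of 12.

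**Figure D1:**
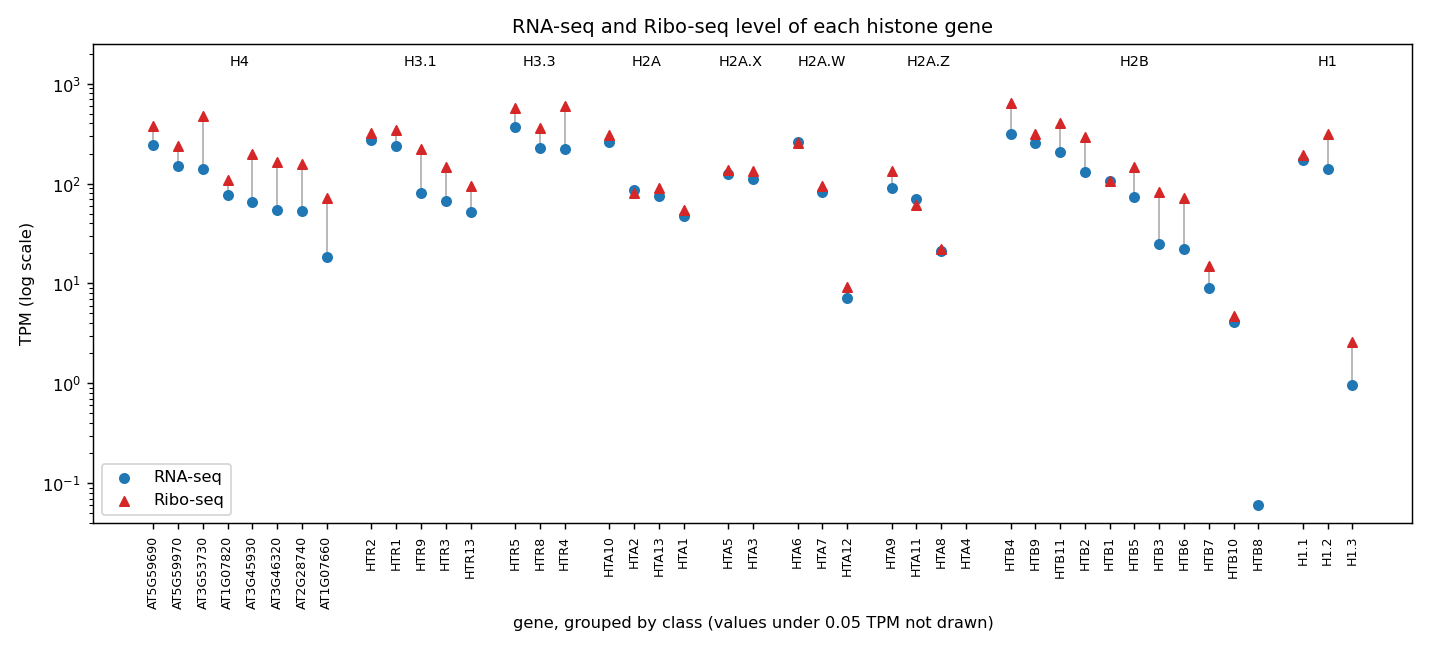
Level of each histone gene in TPM (log axis) in RNA-seq (circles) and Ribo-seq (triangles), 1 pooled value per assay, with genes grouped by class and joined by a line. Triangles lie well above circles in most H4 genes and close to them in the H2A types, and 2 genes, HTA4 and HTB8, are near or at 0.

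H4, which pairs with H3 at the centre of the nucleosome, had the highest median ratio of any class. The 8 genes encode 1 and the same protein of 103 residues from 8 different coding sequences of 312 bases, all in a single exon. Their sequences differ at synonymous positions only, and how much they differ decides how well short reads can be placed. Codons 2 to 21 of 6 of the genes (RefSeq, TAIR10.1) are shown for that reason, with capitals at bases that differ from AT5G59690. The H4 genes AT3G45930 and AT3G46320 are alike over the whole stretch.
AT5G59690: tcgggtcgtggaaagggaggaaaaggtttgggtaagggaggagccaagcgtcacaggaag
AT3G53730: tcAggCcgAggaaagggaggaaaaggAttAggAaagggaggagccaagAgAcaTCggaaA
AT1G07820: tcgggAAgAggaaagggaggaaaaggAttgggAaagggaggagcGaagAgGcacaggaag
AT1G07660: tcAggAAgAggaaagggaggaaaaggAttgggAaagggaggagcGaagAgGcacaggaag
AT3G45930: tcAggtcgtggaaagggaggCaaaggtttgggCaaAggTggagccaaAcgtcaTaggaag
AT3G46320: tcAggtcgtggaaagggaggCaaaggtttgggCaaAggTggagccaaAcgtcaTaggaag

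Over the whole coding sequence, identity between H4 genes ran from 78.8% (AT2G28740 with AT3G53730) to 98.1% (AT1G07660 with AT1G07820, 6 bases apart). Between 1.75% and 70.9% of the 28-mers of an H4 gene, the footprint length of the tables, occur in another gene, with a median of 54.9% over the class. The member with the least shared sequence, AT3G53730 (chr3:19912385-19913515, - strand, TAIR10.1), therefore gives the cleanest single value. It stood at 139.62 TPM of RNA (1194 counts) and 472.53 TPM of footprints (45598 counts), the highest Ribo-seq level of the class. Its ratio was 1.76 (1.68 to 1.84), and that of AT2G28740, with 3.51% shared, was 1.55 (1.41 to 1.68) from 53.55 and 156.57 TPM.

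The highest RNA-seq level among H4 genes belonged to AT5G59690, at 244.03 TPM, with 380.98 TPM in Ribo-seq and a ratio of 0.64. Its close copy AT5G59970 (9 bases apart) had 151.31 and 235.97 TPM and the same ratio of 0.64. AT3G45930 and AT3G46320, 8 bases apart, had 64.66 and 54.37 TPM of RNA, 197.58 and 165.72 TPM of footprints, and ratios of 1.61 each. Each of these 2 pairs thus had matching ratios.

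The third close pair did not. AT1G07820 had 76.24 TPM in RNA-seq and AT1G07660 had 18.59 TPM, a 4.1-fold difference, whereas Ribo-seq gave 109.42 and 72.01 TPM, a 1.52-fold difference. Their ratios were 0.52 (0.41 to 0.64) and 1.95 (1.72 to 2.18), the lowest and the highest of the class. Summed over both genes the ratio was 0.94 (0.83 to 1.04). With 65.6% of their 28-mers in common, how the footprints were divided between them is not stated. If each footprint was counted once, the sum depends on that division less than either gene does. At the RNA-seq fragment length of 187 bases, 0% of the stretches of either gene occur in another gene. Sharing at the length of the RNA-seq reads themselves was not checked.

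Footprints from shared sequence were present in the tables. In 31 pairs of nuclear genes with an identical coding sequence, 15 had at least 100 footprints together. In all 15 both genes held footprints, and the 2 counts lay within 1.5-fold of each other. Of the 169 nuclear genes whose 28-mers all occur in another gene, 41.4% had 0 footprints, against 11.4% of the others. Zeros among these 169 were not particular to footprints, since 70 had 0 footprints and 72 had 0 RNA-seq counts. How shared reads were divided is not stated, so values of single genes in a close pair are uncertain. Were each shared read counted once, class sums would be affected only where the copy lies outside the class. Otherwise sharing within a class would change its sum as well, most of all in H4. All 86 counts of the histone genes are whole numbers.

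Summed over the class, H4 had 802.37 TPM of RNA and 1790.78 TPM of footprints, with a ratio of the sums of 1.16 (1.12 to 1.19). The median of the 8 ratios was 1.58, and like-length genes had a median of 0.11. No H4 gene was below 0.52.

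H3.1 and H3.3 are the replicative and the replacement form of H3, the histone whose tail carries many of the known marks. The 5 H3.1 genes encode 1 protein and the 3 H3.3 genes another, both of 136 residues. HTR2 (H3.1) and HTR5 (H3.3) differ at 4 codons that change the residue, numbers 31, 41, 87 and 90 when the first methionine is not counted, but at 90 bases of the coding sequence (78.1% identity). Sequence around these codons is shown, with the codons in capitals. Reads can tell the forms apart at the other differing bases as well. The first 4 lines span codons 26 to 46 and the last 2 codons 83 to 96, counted with the methionine.
HTR2 (H3.1): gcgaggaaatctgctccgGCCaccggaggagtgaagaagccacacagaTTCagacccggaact
HTR1 (H3.1): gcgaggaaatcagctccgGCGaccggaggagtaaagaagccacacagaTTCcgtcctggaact
HTR5 (H3.3): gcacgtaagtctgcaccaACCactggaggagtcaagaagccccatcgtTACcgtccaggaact
HTR4 (H3.3): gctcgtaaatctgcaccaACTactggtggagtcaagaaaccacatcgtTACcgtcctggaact
HTR2 (H3.1), second stretch: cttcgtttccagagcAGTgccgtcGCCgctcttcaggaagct
HTR5 (H3.3), second stretch: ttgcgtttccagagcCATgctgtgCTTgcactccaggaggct

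Both H3 forms were abundant, and H3.3 was the higher in each assay. H3.1 summed to 711.76 TPM in RNA-seq and H3.3 to 817.53 TPM, a log2 difference of -0.20 (-0.24 to -0.16), or 1.15-fold. In Ribo-seq they summed to 1130.05 and 1530.51 TPM, a log2 difference of -0.44 (-0.45 to -0.43), or 1.35-fold. The H3.3 total comes from 3 genes, against 5 for H3.1. Shared 28-mers reached at most 11.2% in H3.1 and 5.21% in H3.3, far less than in H4.

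Among the H3.1 genes, the pair highest in RNA had the lowest ratios. HTR2 had 271.59 TPM of RNA and 320.44 TPM of footprints, and its ratio of 0.24 (0.19 to 0.29) was the only one in H3.1 below the like-length median of 0.29. HTR1 had 240.57 and 347.96 TPM with a ratio of 0.53 (0.48 to 0.58). The other H3.1 genes were lower in RNA and higher in ratio. HTR9 had 80.88 and 220.94 TPM and a ratio of 1.45, HTR3 had 66.31 and 146.06 TPM and 1.14, and HTR13 had 52.41 and 94.65 TPM and 0.85. None of the 5 intervals overlapped, so the spread within the class exceeded counting error.

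The H3.3 genes also differed among themselves. HTR5 (chr4:18557149-18558945, - strand) was the highest of all 43 genes in RNA-seq, at 370.52 TPM, with 572.07 TPM in Ribo-seq and a ratio of 0.63 (0.59 to 0.67). HTR8, with 225.26 and 359.36 TPM, had a ratio of 0.67 (0.62 to 0.72), and the intervals of these 2 genes overlapped. HTR4 (chr4:18555532-18557106, - strand) stood apart. Its RNA-seq level of 221.75 TPM was close to that of HTR8, but its Ribo-seq level was 599.08 TPM and its ratio 1.43 (1.38 to 1.48). HTR4 and HTR5 lie 42 bases apart on the same strand of chromosome 4 and share 5.21% of their 28-mers.

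H2B, the partner of H2A in the outer dimers of the nucleosome, held the largest single footprint level. The 11 genes have 1 coding exon each and summed to 1140.99 TPM of RNA and 2076.07 TPM of footprints, a ratio of the sums of 0.86 (0.84 to 0.88). HTB4 (chr5:24126877-24128162, + strand) had 311.95 TPM of RNA and 647.25 TPM of footprints, the highest Ribo-seq level of all 43 histone genes, with a ratio of 1.05 (1.01 to 1.09). Ratios in H2B ran from 0.01 to 1.72, the widest range of any class.

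At the top of that range were HTB3, with 24.87 and 82.24 TPM and a ratio of 1.72 (1.58 to 1.86), and HTB6, with 22.27 and 71.14 TPM and 1.67 (1.52 to 1.83). HTB2 followed at 1.16, from 130.33 and 292.06 TPM. At the bottom was HTB1, with 105.90 and 106.27 TPM and a ratio of 0.01 (-0.06 to 0.08). Between 1.19% (HTB1) and 7.18% (HTB6) of the 28-mers of these genes occur in another gene.

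HTB9 and HTB11 are the close pair of this class, with 23.7% and 24.6% of their 28-mers in the other gene. HTB9 was the higher in RNA-seq, at 252.68 against 206.13 TPM, and the lower in Ribo-seq, at 311.70 against 400.81 TPM. Their ratios were 0.30 and 0.96, and 0.63 (0.60 to 0.67) for the sum. HTB5 had 73.78 and 145.02 TPM with a ratio of 0.97, and HTB7 8.93 and 14.83 TPM with 0.72 (0.45 to 1.01).

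Some members were barely measured. HTB8 had 2 RNA-seq counts and 1 footprint. HTA4, of the H2A.Z class, had 0 counts in both assays, which allows up to 0.250 TPM of RNA and 0.0261 TPM of footprints at 3 counts. HTB10 (58 RNA-seq counts) lies wholly within HTA12 (132), on the opposite strand of chromosome 5. Whether counting used the strand is not given, so their levels of 4.09 and 7.20 TPM of RNA, 4.75 and 9.15 TPM of footprints, and their ratios of 0.21 and 0.34 are uncertain.

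**Figure D2:**
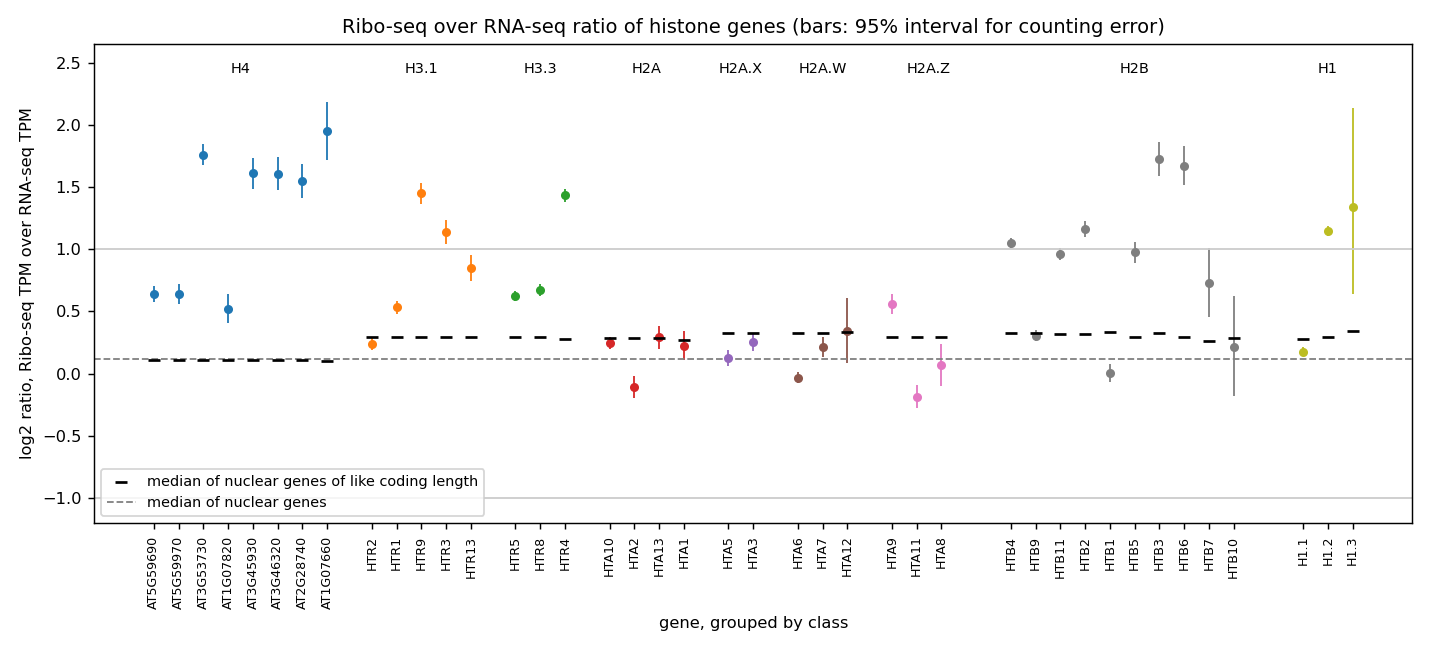
Log2 ratio of Ribo-seq over RNA-seq TPM for the 41 members with a ratio, by class in order of RNA-seq level, with 95% intervals for counting error. Dashes mark the median of nuclear genes of like coding length and the broken line the nuclear median of 0.12. The 8 H4 genes lie between 0.52 and 1.95, while the 12 H2A genes lie between -0.19 and 0.56.

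H2A genes had the lowest ratios among the core histones. The 13 genes of all types summed to 1234.48 TPM of RNA and 1378.77 TPM of footprints, a ratio of the sums of 0.16 (0.14 to 0.18), and 0 of the 12 with a ratio passed 1. Their median of 0.22 lay below the 0.29 of like-length genes, and the medians of the types ran from 0.07 in H2A.Z to 0.23 in canonical H2A.

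Canonical H2A, the replicative form, summed to 466.62 and 533.25 TPM with a ratio of 0.19. HTA10 made up 55.6% of its RNA, with 259.41 TPM of RNA, 307.58 TPM of footprints and a ratio of 0.25. HTA13 (74.59 and 91.34 TPM) and HTA1 (46.82 and 54.71 TPM) had ratios of 0.29 and 0.22. HTA2 was one of 3 histone genes below 0, with 85.80 and 79.62 TPM and a ratio of -0.11 (-0.19 to -0.02).

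H2A.X, the form phosphorylated at DNA breaks, comprised HTA5 at 125.16 and 136.40 TPM and HTA3 at 111.97 and 133.65 TPM. Their ratios of 0.12 (0.06 to 0.19) and 0.26 (0.19 to 0.33) overlapped only at the edge of counting error. H2A.W, the plant form found in heterochromatin, was carried by HTA6, with 260.29 TPM of RNA, 254.45 TPM of footprints and a ratio of -0.03 (-0.08 to 0.01). HTA6 was 74.4% of the RNA of this type, and HTA7 had 82.16 and 95.32 TPM with a ratio of 0.21.

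H2A.Z, a replacement form known from gene starts and from genes that respond to the environment, was the lowest type, at 181.08 and 216.55 TPM. Canonical H2A was 2.58-fold higher than H2A.Z in RNA-seq and 2.46-fold higher in Ribo-seq. HTA9 and HTA11 went apart within the type. HTA9 had 90.70 and 133.55 TPM and a ratio of 0.56 (0.48 to 0.64), the highest of all H2A genes, and HTA11 had 69.32 and 60.90 TPM and -0.19 (-0.28 to -0.09), the lowest of all 41 ratios. HTA8 was lower in level, at 21.06 and 22.10 TPM, with a ratio of 0.07.

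H1, the linker histone, showed a reversal between its main genes. H1.1 was the higher in RNA-seq, at 172.65 against 140.75 TPM for H1.2, and H1.2 the higher in Ribo-seq, at 311.83 against 194.98 TPM. Their ratios were 0.18 (0.14 to 0.21) and 1.15 (1.11 to 1.18), and neither gene shares a 28-mer with another gene. The coding lengths were 825 and 822 bases, but the Ribo-seq effective lengths were 798 bases in H1.1 and 703.3 bases in H1.2, which has 2 transcripts. With the whole coding length the ratios were 0.02 in H1.1 and 0.99 in H1.2. H1.3, known as a stress-induced linker histone, had 0.97 TPM in RNA-seq from 17 counts and 2.61 TPM in Ribo-seq, and its ratio of 1.34 carries a wide interval of 0.64 to 2.13.

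The order of the core histones differed between the assays. In RNA-seq, H3 (H3.1 and H3.3 together) came first at 1529.29 TPM, followed by H2A, H2B and H4. In Ribo-seq the order was H3 at 2660.56 TPM, then H2B, H4 and H2A. H4 was below H2A by 0.62 on the log2 scale in RNA-seq (-0.66 to -0.58) and above it by 0.38 in Ribo-seq (0.37 to 0.39). In counts scaled only to the library total (CPM), H4 stayed below H2A in Ribo-seq as well, at a log2 difference of -0.09. H2B was close to H2A in RNA-seq (log2 difference -0.11) and above it in Ribo-seq (0.59). With no length term the RNA-seq difference was 0.02 and the Ribo-seq difference 0.67.

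**Figure D3:**
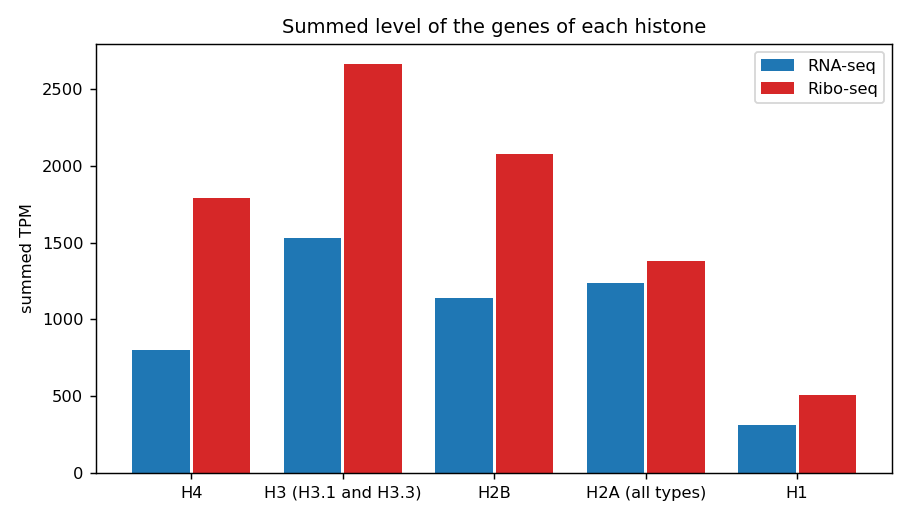
Summed TPM of the genes of each histone in RNA-seq and Ribo-seq (bars from 0, 1 pooled value per assay). H2A lies above H2B and H4 in RNA-seq, at 1234.48 TPM, and below both in Ribo-seq, at 1378.77 TPM.

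Replicative and replacement genes had close median ratios. The median was 0.64 over the 17 replicative genes and 0.59 over 6 replacement genes, a difference of 0.05. Ratios of the sums were 0.80 and 0.81. In summed level, replicative genes were 1.98-fold higher than replacement genes in either assay. H4 has no replacement form in the list. It made up 802.37 of the 1980.75 replicative TPM of RNA and 1790.78 of the 3454.08 TPM of footprints. Among histones with both forms, H3.1 was below H3.3 and canonical H2A above H2A.Z in both assays. Ratios of the sums were 0.67 in H3.1, 0.90 in H3.3, 0.19 in canonical H2A and 0.26 in H2A.Z. Median ratios, in the same order, were 0.85, 0.67, 0.23 and 0.07. The small difference of medians depends on which classes are counted and on the length term, as given with the processing alternatives.

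A larger difference of medians went with coding introns. The grouping was made after the values were seen. The 24 members with the coding sequence in 1 exon are all the H4, H3.1 and H2B genes, and the other 19 are H3.3, all H2A types and H1. Single-exon members had a median ratio of 0.97 (11 of 23 over 1), and the others 0.25 (3 of 18 over 1). Relative to like-length genes the medians were 0.68 and -0.04. Of the 18 genes with coding introns and a ratio, 12 are H2A genes. The intron-bearing classes other than H2A had medians of 0.67 in H3.3 and 1.15 in H1. Single-exon classes had 0.85 in H3.1, 0.97 in H2B and 1.58 in H4. As exon number follows the class exactly, exon number and class cannot be told apart.

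Shared sequence was set beside the ratio because H4 is high in both. Over the 41 members Spearman's rho between the ratio and the share of shared 28-mers was 0.33, a description across genes that are not independent. Among all nuclear genes, 7.47% of those with no shared 28-mer had a ratio over 1, 9.34% of those with up to 25% shared, 19.7% with 25 to 50%, 20.6% with 50 to 75% and 16.3% above that. High ratios were found also where sharing was low, as in AT3G53730 (1.75% shared, 1.76), HTB3 (1.86% shared, 1.72) and H1.2 (0% shared, 1.15). Between RNA-seq and Ribo-seq TPM rho was 0.87 over the 41 members, against 0.94 over nuclear genes, and the ratio varied little with RNA-seq level (rho -0.21).

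**Figure D4:**
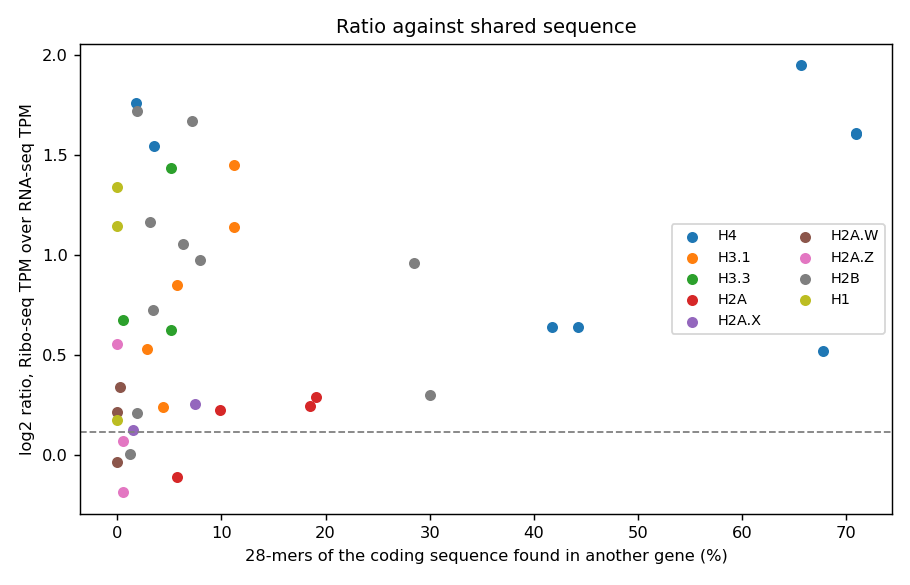
Log2 ratio of each of 41 members against the percentage of its 28-mers that occur in the coding sequence of another gene, coloured by class, with the nuclear median as a broken line. H4 genes reach 70.9% shared, while most other members lie under 12%, with ratios from -0.19 to 1.72.

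Promoters of plant histone genes are known for an octamer (CGCGGATC) and for a hexamer (ACGTCA) to which bZIP factors bind. Both were searched on both strands, from 250 bases before to 50 bases after the annotated start. The octamer was found in 10 of 43 histone promoters (23.3%), against 40 of all 27445 nuclear promoters (0.146%), so 25% of the promoters with it belong to these 43 genes. It occurred in 3 of 5 H3.1, 2 of 4 canonical H2A, 2 of 8 H4, 1 of 3 H3.3, 1 of 3 H2A.W and 1 of 3 H1 promoters, and in 0 of 11 H2B. Stretches upstream of 6 genes are shown to let the sites be compared, with the octamer in capitals, in the direction of the gene (RefSeq, TAIR10.1). In HTR5 and H1.1 it lies in the opposite orientation.
AT5G59690 (H4), chr5:24051377-24051436, + strand: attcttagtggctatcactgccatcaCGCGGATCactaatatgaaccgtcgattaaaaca
HTR1 (H3.1), chr5:26120674-26120733, - strand: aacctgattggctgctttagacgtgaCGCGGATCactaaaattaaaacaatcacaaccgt
HTR9 (H3.1), chr5:3271044-3271103, - strand: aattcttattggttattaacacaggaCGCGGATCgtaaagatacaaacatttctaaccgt
HTA6 (H2A.W), chr5:24116303-24116362, - strand: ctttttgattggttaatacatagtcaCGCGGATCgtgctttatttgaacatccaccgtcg
HTR5 (H3.3), chr4:18558946-18558988, - strand: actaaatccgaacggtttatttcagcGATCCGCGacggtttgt
H1.1 (H1), chr1:2077768-2077821, - strand: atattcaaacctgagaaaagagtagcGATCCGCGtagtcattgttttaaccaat

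Genes with the octamer included the highest in RNA-seq of H4, H3.1, H3.3, canonical H2A, H2A.W and H1, but also AT1G07660, the lowest H4 gene. Their 10 RNA-seq levels ran from 18.59 to 370.52 TPM with a median of 242.3 TPM, against a median of 73.78 TPM and a range of 0 to 311.95 TPM in the 33 others, so the ranges overlapped. The hexamer was mostly that of H2B genes. It was found in 9 of 11 H2B promoters (81.8%), in 13 of all 43 (30.2%) and in 9.19% of nuclear promoters. In HTB4 its only site lay 40 bases after the annotated start. The sequence TATAAA was found in 24 of 43 histone promoters (55.8%) and in 52.1% of all, with 13 of 17 in the replicative and 1 of 7 in the replacement genes. A match marks these letters only and no binding was measured.

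**Figure D5:**
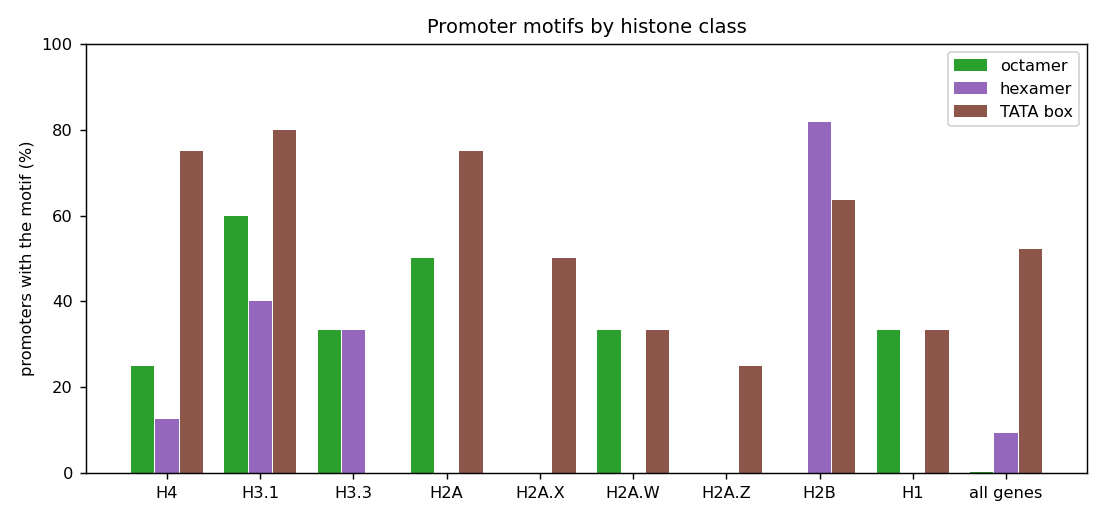
Percentage of promoters with the octamer CGCGGATC, the hexamer ACGTCA or TATAAA, by histone class and over all nuclear genes. H2B stands out for the hexamer (81.8%) and has no octamer, and the octamer is at 0.146% in all genes.

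Genes that act with histones were described by the same ratio, for which 8.44% of nuclear genes passed 1. Of 13 histone chaperones, which carry histones to DNA, 2 passed a ratio of 1 and 0 fell under -1, with a median of 0.43. NAP1;2, a nucleosome assembly protein, had 80.25 and 193.77 TPM and a ratio of 1.27, and NAP1;1 had the highest RNA-seq level at 91.75 TPM. The lowest was HIRA, a chaperone of H3.3, with 5.75 and 3.95 TPM and a ratio of -0.53 (-0.63 to -0.43), below all 41 histone ratios. Of 11 genes of S-phase DNA replication, 1 passed 1, with a median of 0.53. That gene was TSO2, a small subunit of ribonucleotide reductase, with 110.80 and 246.23 TPM and a ratio of 1.15. RNR1, the large subunit, followed in RNA-seq level at 52.51 TPM, and MCM2, of the replicative helicase, was lowest in ratio at -0.11.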

How the data were processed

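RNA-seq and Ribo-seq were each deposited as 1 RSEM table over 6 libraries. Per the submitters' processing notes the tools were Bowtie2 2.3.4.1, STAR and RSEM 1.3.1. Of their order, the annotation and the way of pooling, nothing is given in the sources used here. As units, the authors deposited expected counts (not normalized), TPM and FPKM. Expected counts and TPM were used, and the deposited FPKM was not. Members, lists, motifs and alternatives were chosen with earlier results of these data known. Any member could be named, and of each other list the highest and lowest ratio, the 2 highest RNA-seq levels and all tissue markers. Intervals treat footprints as a binomial share of both counts (exact, 95%). A count of 0 was read as allowing 3 counts. The ratio and interval were tested on simulated data.

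Coding sequences came from RefSeq (TAIR10.1), taking the isoform nearest to the table's length. All 16748 matched genes with 1 transcript had the coding length of the tables. A shared 28-mer is one found in another gene's coding sequence. Computations used Python 3.11.15, numpy 2.4.6, pandas 2.3.3, scipy 1.17.1 and matplotlib 3.10.9.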

Additional observations from a re-analysis of the deposited data

How the results depend on the processing

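No paired analysis was possible because the tables hold 1 pooled value per assay, and for the same reason no replicate could be left out. Alternatives were a pseudocount of 1 TPM, CPM with no length term, the whole coding length of the tables, no filter and at least 10 counts in both assays. The number of members with a ratio over 1 was 14 and rose to 25 in CPM (14.6% of all nuclear genes). With the whole coding length it was 20 (8.88% of all nuclear genes). Short genes had higher ratios in CPM. The CPM median was 0.93 in the length class of H4 and 0.84 in that of H3, against 0.21 in all nuclear genes. Shares over 1 among like-length genes were not taken under these alternatives, so 14.6% and 8.88% are not matched for length. Whether the rise in number exceeds that of like-length genes was not tested. The median difference of replicative and replacement genes, 0.05, was 0.42 in CPM, 0.42 with the whole length and 0.60 with H2B added to the former and H2A.X and H2A.W to the latter. The genes below 0 turned positive in CPM and with the whole length, HTA2 (AT4G27230) at 0.51 and 0.23, HTA6 (AT5G59870) at 0.45 and 0.17, and HTA11 (AT3G54560) at 0.39 and 0.11. A ratio near 0 in H2A thus has no fixed sign. The order of the H4 and H2A medians held in each, at 2.52 against 0.74 in CPM and 2.24 against 0.46 with the whole length. H3.1 stayed below H3.3 in both assays under each alternative. Depth was lowest for HTA4, HTB8, H1.3 and HTB10, whose values are the least certain.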

Other observations

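H3-like genes outside the list of 43 were low. CENH3 (HTR12), the H3 of centromeres, had 6.44 TPM of RNA and 4.32 TPM of footprints, with a ratio of -0.57 (-0.82 to -0.30), below every one of the 41 histone genes. HTR6 had 1.40 and 2.97 TPM and HTR11 1.16 and 2.77 TPM, with ratios of 1.03 and 1.19 whose intervals both reached under 1. HTR14 had 211 footprints but 4 RNA-seq counts, and its ratio of 2.22 carries an interval of 0.84 to 4.11. HTR10, known as an H3 of sperm, had 0 RNA-seq counts and 1 footprint, and HTR15 had 0 and 7.

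Histone genes of different classes lay near each other in several places. Within 50000 bases of each other lay 11 neighbouring pairs of members, of which 6 joined H2B with H4. The closest of these was HTB3 with AT2G28740, 1536 bases apart, with ratios of 1.72 and 1.55. HTR13 and HTR9, both H3.1, lay 577 bases apart on 1 strand, with 52.41 and 80.88 TPM in RNA-seq.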
